A study of Mus musculus with 8 samples.

Results

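Dopamine receptor genes and genes typical of striatal projection neurons were examined in the hippocampus of male mice. The set was chosen by gene symbol: Drd1, Drd2, Drd3, Drd4, Drd5, Penk, Adora2a, Ppp1r1b, Rarb and Actn2. A transcript cluster, the array's unit for the probes of 1 gene, carried the symbol of 9 of these 10 genes, among 22206 clusters in all, and each of the 9 had 1 cluster. Adora2a had no cluster under its symbol and was not measured here. Hippocampal RNA was measured on 8 whole-transcript arrays, 2 in each of 4 groups. The vehicle groups were male offspring sampled at 3 or at 10 weeks of age whose dams had been given vehicle by mouth on postnatal days 1 to 4. The clothianidin groups were male offspring of the same ages whose dams were dosed over the same days with 65 mg/kg/day of clothianidin (CLO), a neonicotinoid insecticide and agonist of nicotinic acetylcholine receptors. The labels call this the level of no observed adverse effect (NOAEL). In all groups the agent was given to the dam and not to the pup, and strain and genotype are not given in the sources used here. No label ties the 2 arrays of a group to separate animals or litters. All p-values here therefore rest on the spread among these samples alone, and that spread may be technical.

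Dopamine acts through 5 G protein-coupled receptors. The D1-like receptors, encoded by Drd1 and Drd5, raise cyclic AMP, whereas the D2-like receptors, encoded by Drd2, Drd3 and Drd4, lower it. In the striatum, Drd1 marks the projection neurons of the direct pathway, and Drd2, Adora2a and Penk mark those of the indirect pathway. The phosphoprotein DARPP-32, encoded by Ppp1r1b, relays cyclic AMP signals in both kinds of neuron, and Rarb encodes a retinoic acid receptor that is abundant there. The hippocampus receives dopamine from fibres of the midbrain and the locus coeruleus, and most of these genes are also used by some of its own neurons.

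RefSeq (GRCm38.p6) gave a promoter window for 7 of the 9 genes, with 8 windows in all, and the 250 bases before each transcript start were searched on both strands. The windows of Rarb, Drd2 and Actn2 are printed because these genes differed with age below, and each is written 5′ to 3′ on the strand of its gene. Capitals mark a retinoic acid response element, searched as a direct repeat of GTTCA with any 6 bases between the copies, in Rarb (chr14:16575477-16575726, minus strand, inside the span of the gene, which reaches further upstream). In Drd2 (chr9:49340153-49340359, plus strand) and Actn2 (chr13:12340733-12340982, minus strand), capitals mark the GC box GGGCGG or its complement. The Drd2 window ran 43 bases into the annotated span of the gene. Those bases were searched and are not printed, which leaves 207.
Rarb: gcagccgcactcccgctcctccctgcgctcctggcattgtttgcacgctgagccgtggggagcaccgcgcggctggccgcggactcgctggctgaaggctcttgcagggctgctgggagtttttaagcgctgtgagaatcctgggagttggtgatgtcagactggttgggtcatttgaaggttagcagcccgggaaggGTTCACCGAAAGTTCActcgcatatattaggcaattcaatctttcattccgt
Drd2: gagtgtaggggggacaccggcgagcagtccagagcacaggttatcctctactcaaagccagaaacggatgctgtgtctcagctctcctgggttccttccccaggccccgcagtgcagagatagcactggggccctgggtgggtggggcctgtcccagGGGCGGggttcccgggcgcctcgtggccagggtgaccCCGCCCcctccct
Actn2: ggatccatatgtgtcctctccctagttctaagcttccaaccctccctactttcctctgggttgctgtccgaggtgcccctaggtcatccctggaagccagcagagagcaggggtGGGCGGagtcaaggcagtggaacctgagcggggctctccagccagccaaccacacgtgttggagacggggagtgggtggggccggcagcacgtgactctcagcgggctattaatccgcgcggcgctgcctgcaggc
The Rarb element begins 52 bases upstream of the transcript start, and the repeat occurs in 22 of the 32851 windows of the table (0.067%). Rarb was the single gene of the set whose window holds it. The GC box occurs in 32.7% of all windows and in those of 5 genes of the set, Drd1, Drd2, Drd4, Drd5 and Actn2. The cyclic AMP response element TGACGTCA (1.55% of all windows) and the TATA box TATAAA (12.4%) were found in no window of the set. A match is a description of letters and not a measured binding site.

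The 8 arrays had medians of 5.73 to 5.86 (log2) and lower quartiles of 3.85 to 4.13. Genes of hippocampal principal cells averaged 8.89 to 10.11 in every array over 20 measured genes, and none of them lay below the lower quartile in all 8 arrays. Genes that mark neighbouring tissue differed between arrays: transthyretin (Ttr), the main secreted protein of the choroid plexus, read above 18 in 3 arrays. These were the second vehicle array and the first clothianidin array of the younger age and the first clothianidin array of the older. The other 5 read 5.24 to 7.37. Of 12 measured markers of midbrain dopamine neurons, 3 (Slc6a3, Pitx3 and Foxa1) read below the lower quartile in all 8 arrays, and the other 9 did not. Of 13 markers of the septum and subpallium, 3 (Chat, Gbx1 and Nkx2-1) did so, and the other 10 did not. Some of those others are shared with further cell types, such as Nr4a2, a gene of cortical neurons too, which read 12.63 to 14.59. The arrays therefore do not show whether such tissue was present.

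With age, 4 genes of the set rose between 3 and 10 weeks: Drd2, Penk, Rarb and Actn2, by 1.6-fold to 1.83-fold. None of the 9 passed the threshold for clothianidin against vehicle at either age. Of the 9 genes, 6 had a higher mean and 3 a lower mean at 10 weeks, and the median difference was 0.68 on the log2 scale, against 0.07 over all clusters. A gene was called when its p from limma, after Benjamini-Hochberg adjustment across the 22206 clusters, was under 0.05. The age comparison called 11.2% of all clusters (6.37% higher and 4.84% lower), and 4 of the 9 genes, all higher. An unadjusted p under 0.05 was found for 29.5% of all clusters and for 6 of the 9 genes. The 4 arrays of one age did not overlap the 4 of the other for 19.7% of all clusters (11.8% higher and 7.89% lower at 10 weeks) and for 5 of the 9 genes, Drd3 being the 1 that was lower. These calls were sensitive to single arrays, as were those over all clusters, and leaving out 1 array leaves a group of 1. The differences then ran from 0.67 to 1.09 for Drd2 and from 0.69 to 1.04 for Penk. They ran from 0.59 to 0.77 for Rarb and from 0.56 to 0.81 for Actn2. The calls in these fits, and without the 3 arrays with Ttr above 18, are given in the closing section.

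**Figure D1:**
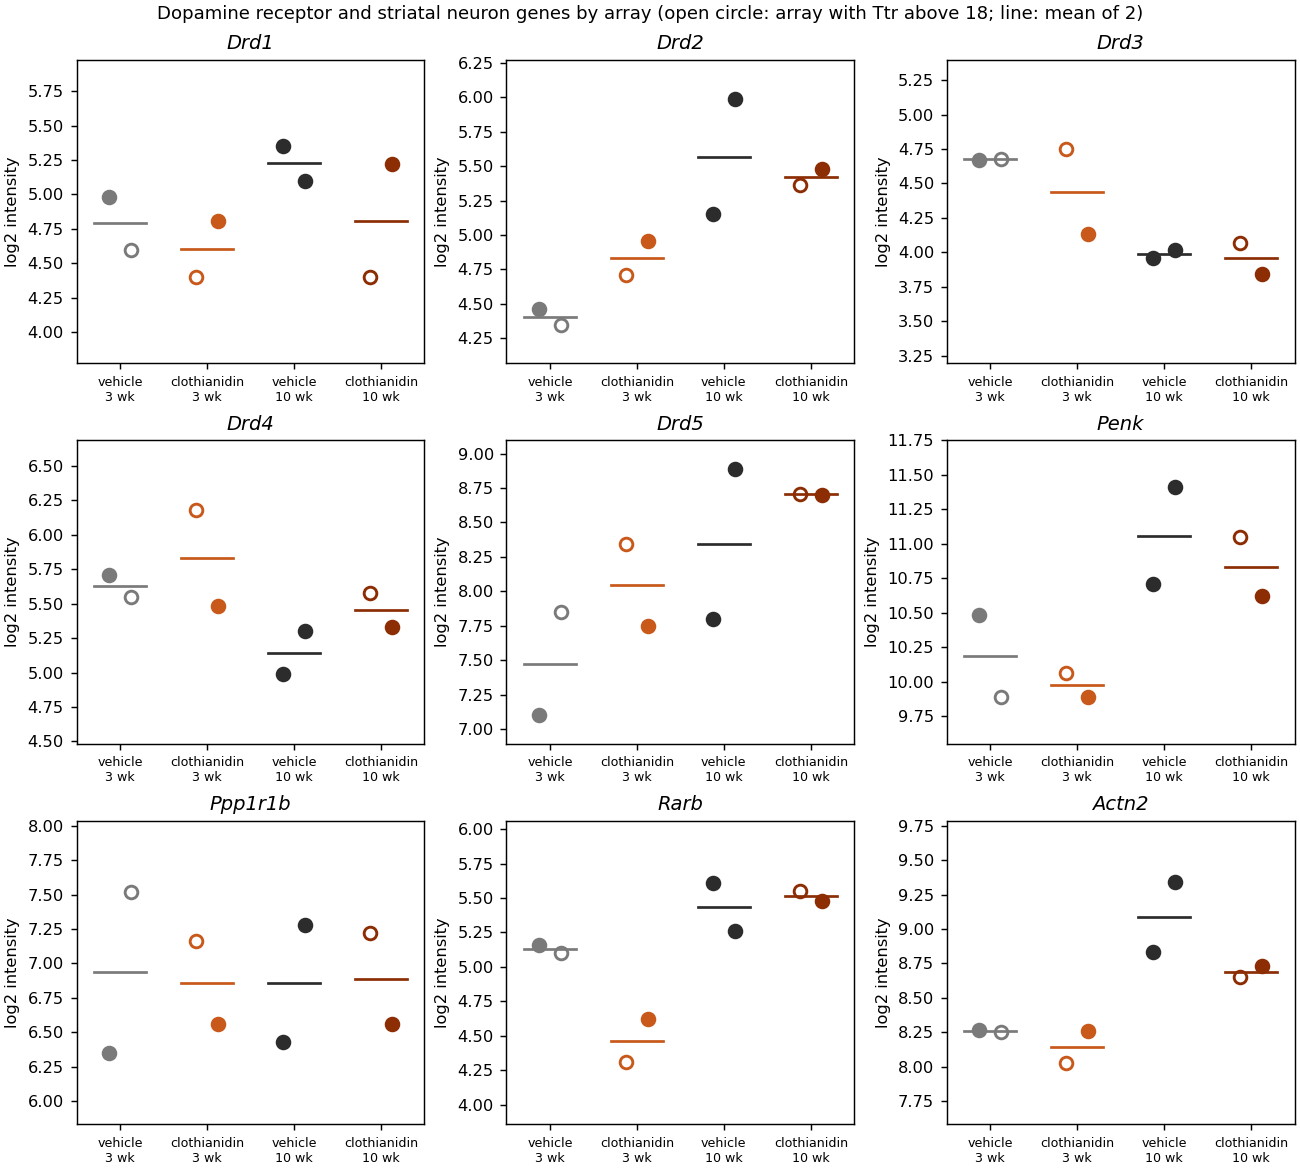
Log2 level of the 9 genes in each of the 8 arrays, with 1 panel per gene, the 4 groups along the horizontal axis, 1 point per array and a bar at each group mean. Drd2, Penk, Rarb and Actn2 lay higher in all 4 arrays at 10 weeks than in any array at 3 weeks, and Drd3 lay lower in all 4.

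Among the D1-like receptors, Drd1 read 4.98 and 4.60 after vehicle at 3 weeks and 4.40 and 4.81 after clothianidin. At 10 weeks it read 5.35 and 5.10 after vehicle and 4.40 and 5.22 after clothianidin. The first clothianidin array at 10 weeks lay as low as the lowest array at 3 weeks, and the ages overlapped. The age difference was 0.32 ± 0.23 (SE) and did not pass (limma, adjusted p = 0.39). Drd1 stayed below the array median in all 8 arrays.

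Drd5, the D1-like receptor better known from the hippocampus than from the striatum, read 7.10 and 7.85 after vehicle and 8.34 and 7.75 after clothianidin at 3 weeks. The values at 10 weeks were 7.80 and 8.89 after vehicle and 8.71 and 8.70 after clothianidin. The lowest value was that of the first vehicle array at 3 weeks, and the other 3-week arrays overlapped the first vehicle array at 10 weeks. The age difference of 0.77 ± 0.28 missed the threshold (limma, adjusted p = 0.0956). When each array was left out in turn it ran from 0.49 (without the second vehicle array at 10 weeks, adjusted p = 0.269) to 1.04 (without the first, adjusted p = 0.0485), and the latter alone of the 8 passed.

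Among the D2-like receptors, Drd2, which couples to inhibitory G proteins and also serves as an autoreceptor on dopamine fibres, read 4.46 and 4.35 after vehicle and 4.71 and 4.96 after clothianidin at 3 weeks. At 10 weeks it read 5.15 and 5.99 after vehicle and 5.36 and 5.48 after clothianidin. Every 10-week array exceeded every 3-week array, and the second vehicle array at 10 weeks was the highest. Drd2 rose by 0.88 ± 0.22, from a mean of 4.62 to 5.50 (SD 0.27 and 0.36, n = 4 each), or 1.83-fold (limma, adjusted p = 0.0306). Taken by exposure, the difference was 1.17 after vehicle and 0.59 after clothianidin. In only 1 array did Drd2 exceed the array median. The call held without the first vehicle array at 10 weeks (1.09, adjusted p = 0.0258) and was lost without any of the other 7 arrays (0.67 to 0.94, adjusted p from 0.0552 to 0.1).

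Drd3, a receptor of limbic regions and the islands of Calleja, went the other way. It read 4.67 and 4.68 after vehicle and 4.75 and 4.13 after clothianidin at 3 weeks, against 3.96 and 4.02 after vehicle and 4.07 and 3.84 after clothianidin at 10 weeks. All 10-week arrays lay below all 3-week arrays, by -0.59 ± 0.20 between the means, but the difference missed the threshold (limma, adjusted p = 0.0837). Drd3 was close to the lower quartile of the arrays. A signal above background was not shown for clusters below the array median, which include Drd1, Drd3 and Rarb in all 8 arrays and Drd2 and Drd4 in 7, so the folds of Drd2 and Rarb carry that limit too. Drd4, a receptor of cortical and hippocampal neurons, read 5.71, 5.55, 6.18 and 5.48 at 3 weeks and 4.99, 5.30, 5.58 and 5.33 at 10 weeks, vehicle before clothianidin. Its ages overlapped through the first clothianidin array at 10 weeks, and the difference of -0.43 ± 0.22 did not pass (limma, adjusted p = 0.208).

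Penk encodes proenkephalin, the precursor of the enkephalins, which striatal neurons of the indirect pathway and some hippocampal neurons release. It read 10.48 and 9.89 after vehicle and 10.06 and 9.89 after clothianidin at 3 weeks. At 10 weeks it read 10.71 and 11.41 after vehicle and 11.05 and 10.62 after clothianidin. The 2 ages did not overlap, although the highest 3-week array and the lowest 10-week array lay close together. Penk rose by 0.87 ± 0.23, from a mean of 10.08 to 10.95 (SD 0.28 and 0.36, n = 4 each), or 1.82-fold (limma, adjusted p = 0.0383), with differences of 0.88 after vehicle and 0.86 after clothianidin. It was the one gene of the set above the upper quartile in all 8 arrays. The call held without the first vehicle array at 3 weeks (1.01, adjusted p = 0.0431) or at 10 weeks (1.04, adjusted p = 0.038), and was lost without any of the other 6 (0.69 to 0.98, adjusted p from 0.073 to 0.127).

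Ppp1r1b, whose product DARPP-32 inhibits a protein phosphatase when protein kinase A has phosphorylated it, showed no age difference that could be resolved (-0.03 ± 0.31; limma, adjusted p = 0.97). The 95% confidence interval ran from -0.70 to 0.65. Its arrays fell at separate levels inside each group. The values were 6.35 and 7.52, 7.16 and 6.56, 6.43 and 7.28, and 7.22 and 6.56 for the vehicle and clothianidin groups at 3 weeks and then at 10 weeks. In every group 1 array read 7.16 to 7.52 and the other 6.35 to 6.56. The 3 arrays with Ttr above 18 were among the 4 high ones, the remaining high array being the second vehicle array at 10 weeks with Ttr at 7.37. Of 20 measured genes of hippocampal principal cells, 3 had their highest values in those 3 arrays: Prox1, Dsp and Nectin3. The other genes of that list did not have this order, which was found for 1.62% of all clusters. Prox1, the transcription factor of dentate granule cells, read 12.37 to 13.01 in those 3 arrays and 10.91 to 12.33 elsewhere, and Dsp read 7.32 to 7.92 against 4.76 to 7.16. Their part in the level of Ppp1r1b was not tested.

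Rarb, the nuclear receptor whose promoter carries the element printed above, read 5.16 and 5.10 after vehicle and 4.31 and 4.62 after clothianidin at 3 weeks. At 10 weeks it read 5.61 and 5.26 after vehicle and 5.55 and 5.48 after clothianidin. The ages did not overlap, and the clothianidin arrays at 3 weeks were the lowest. Rarb rose by 0.68 ± 0.19, from a mean of 4.80 to 5.48 (SD 0.41 and 0.15, n = 4 each), or 1.6-fold (limma, adjusted p = 0.0441). The age difference was 0.31 after vehicle and 1.05 after clothianidin. Their difference, which is also the difference between the exposure differences, was 0.75 ± 0.38 and did not pass (limma, adjusted p = 0.998). The age call was lost without any 1 of the 8 arrays (0.59 to 0.77, adjusted p from 0.0633 to 0.141). Rarb lay below the array median in all 8 arrays.

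Actn2 encodes an alpha-actinin that cross-links actin in dendritic spines and binds NMDA receptor subunits. It read 8.27 and 8.25 after vehicle and 8.03 and 8.26 after clothianidin at 3 weeks. At 10 weeks it read 8.83 and 9.34 after vehicle and 8.65 and 8.73 after clothianidin. Every 10-week array exceeded every 3-week array. Actn2 rose by 0.69 ± 0.20, from a mean of 8.20 to 8.89 (SD 0.12 and 0.31, n = 4 each), or 1.61-fold (limma, adjusted p = 0.0464), with 0.83 after vehicle and 0.55 after clothianidin. The call held without the first vehicle array at 10 weeks (0.81, adjusted p = 0.0478) and was lost without any of the other 7 (0.56 to 0.74, adjusted p from 0.0705 to 0.14). In bulk tissue, more cells of a type and more RNA per cell cannot be told apart, and this applies to each of these genes.

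The other settings were uneven for the 4 genes. Across 10 other settings of the fit Drd2 passed in 8, and Rarb passed in 4 of 10, while Penk and Actn2 each passed in 5 of 11. Some of these settings could hardly differ from the main fit, so their passes add little. Each gene has 1 cluster, so the mean of its clusters is the same value. The array weights were equal inside each group, and the robust prior left the errors nearly unchanged. With each array centred on its median, only Drd2 of the set passed (0.81, adjusted p = 0.0421), and Penk (0.80), Rarb (0.61) and Actn2 (0.62) had adjusted p of 0.0523, 0.0613 and 0.0676. Without the 3 arrays with Ttr above 18 the differences were 0.82 for Drd2, 0.65 for Penk, 0.57 for Rarb and 0.64 for Actn2. That leaves 1 array in every group but vehicle at 10 weeks, too few to show whether the calls depend on those arrays. Each difference kept its sign in this fit of 5 arrays.

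Clothianidin against vehicle asks whether exposure of the dam over the first postnatal days altered these transcripts in the offspring. At 3 weeks none of the 9 genes was called, as for 0% of all clusters, and at 10 weeks none was called, again as for 0% of all clusters (limma, adjusted p). At an unadjusted p under 0.05, 1 of the 9 passed at 3 weeks (5.9% of all clusters) and 0 at 10 weeks (3.69%). The groups did not overlap for 2 of the 9 genes at 3 weeks, Drd2 and Rarb, and for 2 at 10 weeks, Drd4 and Actn2. Over all clusters the shares without overlap were 34.4% and 30.7%, so 2 of 9 is below the share over all clusters at both ages.

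Rarb had the largest exposure difference of the set at 3 weeks, -0.67 ± 0.27, with both clothianidin arrays under both vehicle arrays (limma, unadjusted p = 0.0308, adjusted p = 0.846). At 10 weeks its difference was 0.08 ± 0.27, with a 95% interval from -0.51 to 0.67. Drd2 was 0.43 ± 0.31 higher after clothianidin at 3 weeks, without overlap, and -0.15 ± 0.31 at 10 weeks. Drd5 differed by 0.57 ± 0.39 at 3 weeks and by 0.36 ± 0.39 at 10 weeks, the clothianidin mean being higher at both ages although arrays overlapped. Drd1 lay lower after clothianidin at both ages, by -0.19 ± 0.33 and -0.42 ± 0.33, and its low value at 10 weeks came from the first clothianidin array, which had a Ttr level of 18.25. Without that array the difference at 10 weeks was 0.00, and without the second clothianidin array it was -0.82.

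The remaining exposure differences were of the size of their errors or smaller, except for Actn2 at 10 weeks. Drd4 differed by 0.20 ± 0.30 at 3 weeks and by 0.31 ± 0.30 at 10 weeks. Drd3 differed by -0.24 ± 0.29 and -0.04 ± 0.29, and Penk by -0.21 ± 0.33 and -0.23 ± 0.33. For Ppp1r1b the differences were -0.08 ± 0.44 and 0.04 ± 0.44, the widest errors of the set. For Actn2 they were -0.12 ± 0.28 and -0.40 ± 0.28, and in the latter the arrays did not overlap. With 2 arrays per group these intervals do not show equal levels: for Drd1 at 10 weeks the 95% interval ran from -1.14 to 0.31.

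Averaged over both ages, none of the 9 genes was called, as for 0% of all clusters (limma, adjusted p from 0.792 to 0.995), and none had an unadjusted p under 0.05 (6.17% of all clusters). The mean difference was largest for Drd5 (0.47 ± 0.28), followed by Drd1 (-0.30 ± 0.23) and Rarb (-0.29 ± 0.19). For 6.88% of all clusters the exposure groups did not overlap at both ages in the same direction (3.48% higher and 3.4% lower after clothianidin), and none of the 9 genes was among them. The difference between the 2 exposure differences was called for none of the 9 genes and 0% of all clusters (limma, adjusted p = 0.998 for each), with none of the 9 at an unadjusted p under 0.05 (3.13% of all clusters).

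**Figure D2:**
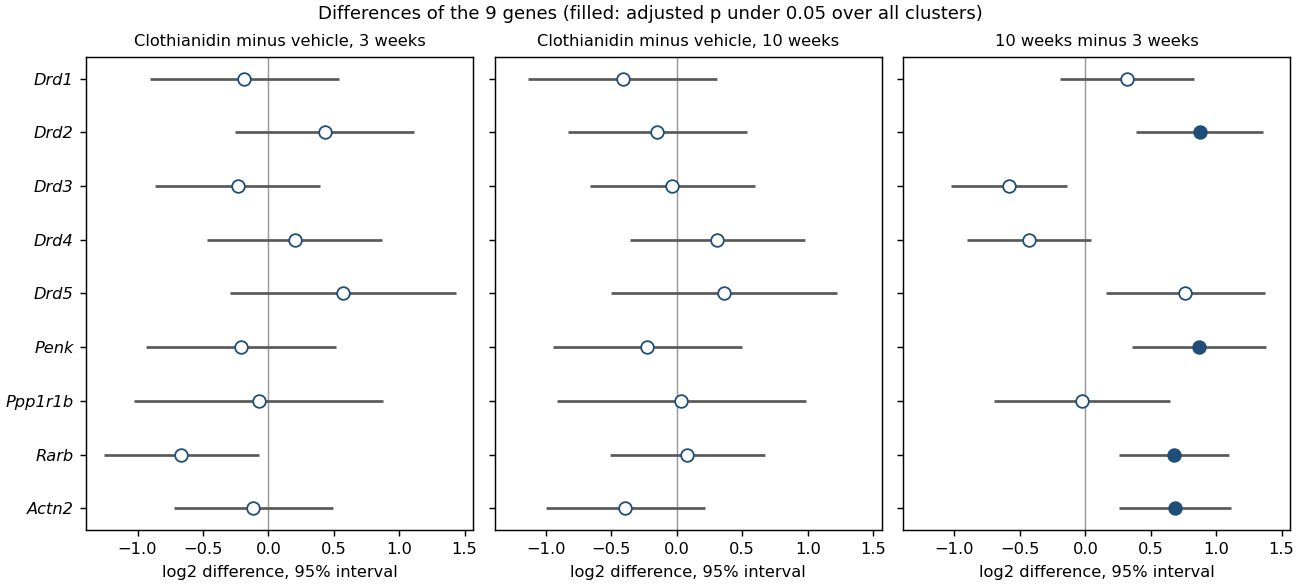
Log2 differences of the 9 genes for clothianidin against vehicle at 3 and at 10 weeks and for 10 against 3 weeks, with 95% confidence intervals from limma. The age differences of Drd2, Penk, Rarb and Actn2, from 0.68 to 0.88, passed the threshold, and no exposure difference did.

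Other genes of striatal projection neurons were followed in a list of 39 genes, of which 38 were measured. With age 31 were higher and 7 lower, with a median of 0.40 against 0.07 over all clusters, of which 56% were higher. The 5 called genes are 13.2% of the list, against 11.2% of all clusters. Markers of some other cell types also lay higher at 10 weeks: 18 of 20 genes of hippocampal principal cells (median 0.33), 12 of 16 of neocortex (median 0.26) and 11 of 17 of GABA interneurons (median 0.26). Others lay mostly lower: 9 of 13 of septum and subpallium (median -0.23), 10 of 17 of thalamus and habenula (-0.085) and 7 of 9 of ependyma (-0.10). So did 20 of 21 of choroid plexus (-0.64) and 9 of 12 of midbrain dopamine neurons (-0.39). Meninges and vessels had 9 higher and 9 lower. The part of these cells in the age differences of the striatal list was not tested. Adcy5, the adenylyl cyclase that dopamine receptors of the striatum act on, rose by 1.08 from 7.02, 7.30, 7.40 and 7.16 to 7.84, 8.32, 8.71 and 8.33 (limma, adjusted p = 0.0123). The calcium-dependent phosphodiesterase Pde1b rose by 0.96 (adjusted p = 0.015) and the transcription factor Ebf1 by 1.02 (adjusted p = 0.0155). Dlx6, a homeobox gene of GABA neurons, rose by 0.82 (adjusted p = 0.0429), and the sodium channel subunit gene Scn4b by 0.74 (adjusted p = 0.0481). None of the list was called lower. When each of the 8 arrays was left out in turn, the list median stayed between 0.35 and 0.48. Adcy5 was called in 7 of the 8 fits, Pde1b in 6, Ebf1 in 4, and Dlx6 and Scn4b in 1 each. With the replicate number as a block, with median centring, or with choroid plexus and deep cortex levels as covariates, 3 of the list were called. Of all clusters, 1803, 2275 and 1280 were called in these settings. Without the 3 arrays with Ttr above 18 the list median was 0.37. That fit has 1 array in every group but vehicle at 10 weeks, too few for calls to be weighed. The list is not exclusive to the striatum: Gad1, Ebf1, Pde1b and Foxp1 are used by neurons of other regions too, and 1 of the 38, Ido1, was below the lower quartile in all 8 arrays. Tac1, the substance P precursor gene of the direct pathway, differed by -0.62 and Pdyn, the dynorphin precursor gene, by 0.52, and neither passed.

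**Figure D3:**
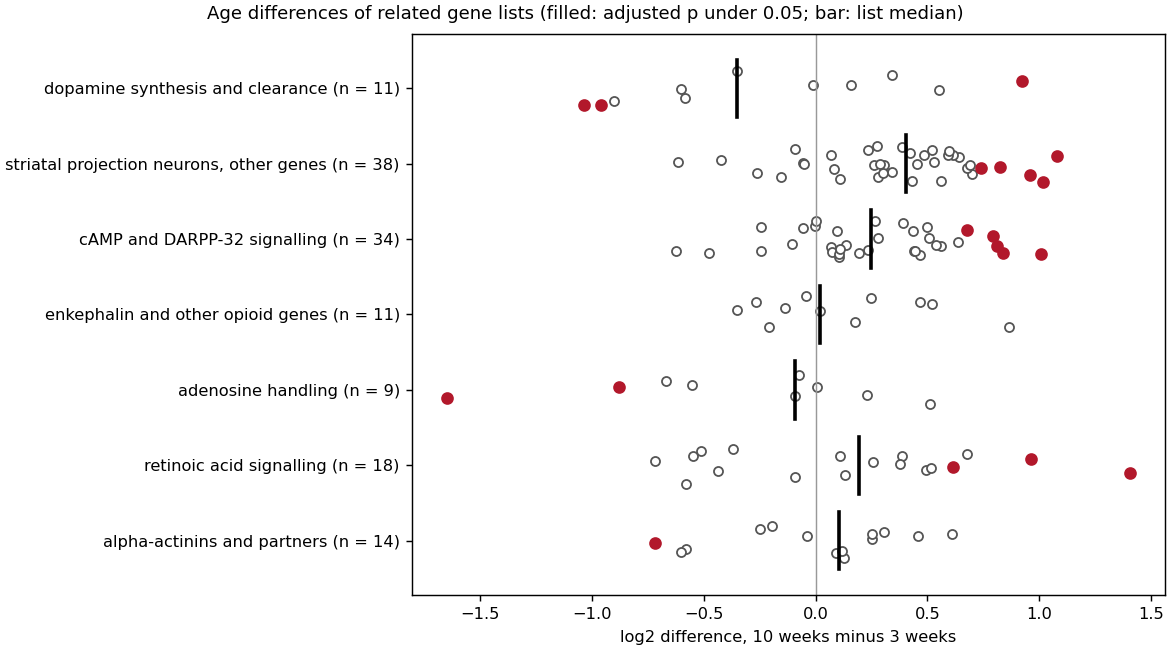
Log2 difference between 10 and 3 weeks for each measured gene of 7 related lists, with 1 point per gene, filled where the adjusted p was under 0.05, and a bar at the list median. The striatal list, with a median of 0.40, had 31 of 38 genes on the higher side, and the list of dopamine synthesis and clearance, with a median of -0.35, had 7 of 11 on the lower side.

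Downstream of the receptors, 34 of 37 genes of cyclic AMP and DARPP-32 signalling were measured. With age 27 were higher and 7 lower, with a median of 0.25, and 5 were called, all higher, which is 14.7% of the list against 11.2% of all clusters. After quantile normalisation 20 were higher and 14 lower, with a median of 0.14 and 2 called. With the replicate number as a block 3 were called, and with both tissue covariates 1. Without the 3 arrays with Ttr above 18 the median was 0.23. Akap5, which anchors protein kinase A at synapses, rose by 1.01 (limma, adjusted p = 0.0168), and Prkaca, a catalytic subunit of that kinase, by 0.84 (adjusted p = 0.0194). The phosphodiesterases Pde2a and Pde7b rose by 0.79 (adjusted p = 0.0321) and 0.81 (adjusted p = 0.0489), and the receptor kinase Grk3 by 0.68 (adjusted p = 0.042). Akap5 read 8.28 and 8.81 after vehicle and 9.38 and 9.80 after clothianidin at 3 weeks, a difference of 1.05 that did not pass (limma, adjusted p = 0.846). Pde7b read 7.96 and 8.79 after vehicle and 9.05 and 9.34 after clothianidin at 3 weeks, a difference of 0.82 that did not pass either (limma, adjusted p = 0.846). For both genes the vehicle arrays at 3 weeks were the lowest of the 8. When each array was left out in turn, Akap5 was called in 5 of the 8 fits, Prkaca in 4, Pde2a and Pde7b in 1 each and Grk3 in 0.

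Genes that make and clear dopamine moved in both directions with age. Of 11 measured genes of 12, 4 were higher and 7 lower, with a median of -0.35, and 3 were called, 27.3% of the list against 11.2% of all clusters. Without the 3 arrays with Ttr above 18 the median was -0.11. With both tissue covariates it was -0.12, and it ran from -0.50 to -0.18 when each array was left out in turn. Maoa, a monoamine oxidase, rose by 0.93 from 7.70, 7.50, 7.60 and 7.67 to 8.48, 8.65, 8.71 and 8.33 (limma, adjusted p = 0.0154). Ddc, the aromatic amino acid decarboxylase, fell by 1.04 (limma, adjusted p = 0.0166), and Slc18a2, the vesicular monoamine transporter, fell by 0.96 (limma, adjusted p = 0.0341). Of the midbrain dopamine neuron list, which shares these last genes, 3 of 12 were higher and 9 lower with age, and its mean level lay between 5.02 and 5.54 over the 8 arrays. When each array was left out in turn, Maoa and Ddc were called in 6 of the 8 fits and Slc18a2 in 2.

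Of the retinoic acid list, 18 of 20 genes were measured. With age 11 were higher and 7 lower, with a median of 0.19, and 3 were called, all higher, which is 16.7% of the list against 11.2% of all clusters. The median was 0.09 after quantile normalisation and 0.20 without the 3 arrays with Ttr above 18. Stra6, a membrane receptor for the retinol carrier, rose by 1.41 from 6.09, 6.76, 6.89 and 6.36 to 8.09, 7.63, 8.37 and 7.64 (limma, adjusted p = 0.00982). The partner receptors of Rarb, Rxra and Rxrb, rose by 0.96 (adjusted p = 0.0154) and 0.62 (adjusted p = 0.0495). Rarg, the sister receptor of Rarb, read 8.36 and 8.28 after vehicle and 7.26 and 7.48 after clothianidin at 3 weeks. Its difference of -0.95 had the lowest unadjusted p of the list (0.00822) and did not pass after adjustment (limma, adjusted p = 0.846). Stra6 was called in all 8 fits that left out 1 array, Rxra in 5 and Rxrb in 0.

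The opioid list, with 11 of 12 genes measured, had 6 higher and 5 lower genes with age and a median of 0.02. No gene was called, against 11.2% of all clusters (limma). The lowest p-values were those of Oprm1, the mu opioid receptor gene (0.86, unadjusted p = 0.00658), and Oprd1, the delta receptor gene on which enkephalins act (0.47, unadjusted p = 0.0444), so 2 of the 11 passed an unadjusted p of 0.05, against 29.5% of all clusters. The median changed sign after median centring (-0.05), with Ttr as a covariate (-0.08) and without the 3 arrays with Ttr above 18 (-0.16). The adenosine list had 9 measured genes of 12, 3 higher and 6 lower with age, with a median of -0.09, which was -0.30 after quantile normalisation, -0.16 without the 3 arrays with Ttr above 18 and from -0.34 to -0.05 when each array was left out. Slc28a2, a concentrative nucleoside transporter, fell by 1.65 (limma, adjusted p = 0.00453), and Ada, adenosine deaminase, fell by 0.88 (limma, adjusted p = 0.0245). These 2 called genes are 22.2% of the list, against 11.2% of all clusters. Of the actinin list, 14 of 15 were measured, with 8 higher and 6 lower and a median of 0.11, which was 0.06 after quantile normalisation. Its single called gene, Pdlim3, an actinin-binding LIM protein, fell by 0.72 (limma, adjusted p = 0.0395). That is 7.14% of the list, below the 11.2% of all clusters. Slc28a2 was called in all 8 fits that left out 1 array, Ada in 2 and Pdlim3 in 1. Without the 3 arrays with Ttr above 18 the median of the actinin list was 0.06.

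No gene of the 7 lists was called for clothianidin against vehicle at either age (limma, adjusted p), and the 2 genes of each list with the lowest unadjusted p are given as values. At 3 weeks these included, beside Rarg, Akap5 and Pde7b, Bcl11b (1.01) and Foxp1 (0.49), both transcription factors of striatal and other projection neurons. The low vehicle mean of Bcl11b came from the first vehicle array, at 9.38, against 10.52 to 11.66 in the other 7 arrays. Aldh1a1, a retinaldehyde dehydrogenase also used by dopamine neurons, differed by 0.93. The noradrenaline transporter gene Slc6a2 differed by -0.61 and Pitx3 by -0.46, both below the lower quartile in all arrays. For the opioid list they were Cpe (0.77) and Mme (-0.58), for the adenosine list Slc29a1 (0.35) and Slc28a2 (-0.41), and for the actinin list Actn4 (0.78) and Ttn (-0.64). None of these values passed after adjustment (limma, adjusted p from 0.846 to 0.878).

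At 10 weeks Maob, a monoamine oxidase, read 7.89 and 8.11 after vehicle and 9.11 and 8.47 after clothianidin, a difference of 0.79, and Slc6a2 differed by -0.52. Ido1 differed by -0.59 and Rasd2, a striatal G protein, by 0.60. In the cyclic AMP list, Adcy9 differed by 0.49 and Cdk5r1 by 0.40. The kappa opioid receptor gene Oprk1 differed by -0.63 and Pcsk1 by -0.56. Entpd1 differed by -0.56 and Slc28a2 by 0.45. In the retinoic acid list, Aldh1a2 differed by -0.62 and Crabp2 by -0.78, and in the actinin list Dlg4 by 0.74 and Actn3 by -0.63. None of these values passed after adjustment (limma, adjusted p = 0.997 for each).

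Levels of neighbouring tissue were set beside these results. In the choroid plexus list, 17 of 21 measured genes had their 3 highest values in the 3 arrays with Ttr above 18. Folr1 read 9.04 to 9.57 there and 3.55 to 4.91 elsewhere, and Kcnj13 read 11.68 to 12.02 against 5.56 to 7.09. The mean level of the list at 3 weeks was 5.69 and 8.56 after vehicle, and 8.06 and 5.68 after clothianidin. At 10 weeks it was 5.69 and 5.68 after vehicle and 8.39 and 5.18 after clothianidin. Both vehicle arrays at 10 weeks were therefore low, and each other group held 1 high array.

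Drd1 was the 1 gene of the set whose values did not overlap across this division. It read 4.40 to 4.60 in the 3 arrays with Ttr above 18 and 4.81 to 5.35 in the other 5. The same order, with the lowest values in those 3 arrays, was found for 388 of all clusters (1.75%). Of 16 measured neocortical genes, 5 had it: Cplx3, Ccn2, Nr4a2, Ovol2 and Tshz2. Cplx3, a marker of the deepest cortical layer, read 3.78 to 4.67 in those arrays and 5.32 to 6.65 in the others, and Ccn2, a marker of the same layer, 4.94 to 5.55 against 6.05 to 7.40. The mean of the neocortical list ran from 8.36 to 8.98 after vehicle and from 8.61 to 8.79 after clothianidin at 3 weeks, and from 8.87 to 9.16 and from 8.62 to 9.31 at 10 weeks. Of the 38 measured genes of the striatal list, Chrm4, Arpp21 and Meis2 also had their lowest values in those 3 arrays, and Strip2 had its highest there. Ppp1r1b lay mostly higher in those 3 arrays, at 7.16 to 7.52 against 6.35 to 7.28 in the others. The part of neighbouring tissue in the levels of Drd1 and Ppp1r1b was not tested.

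**Figure D4:**
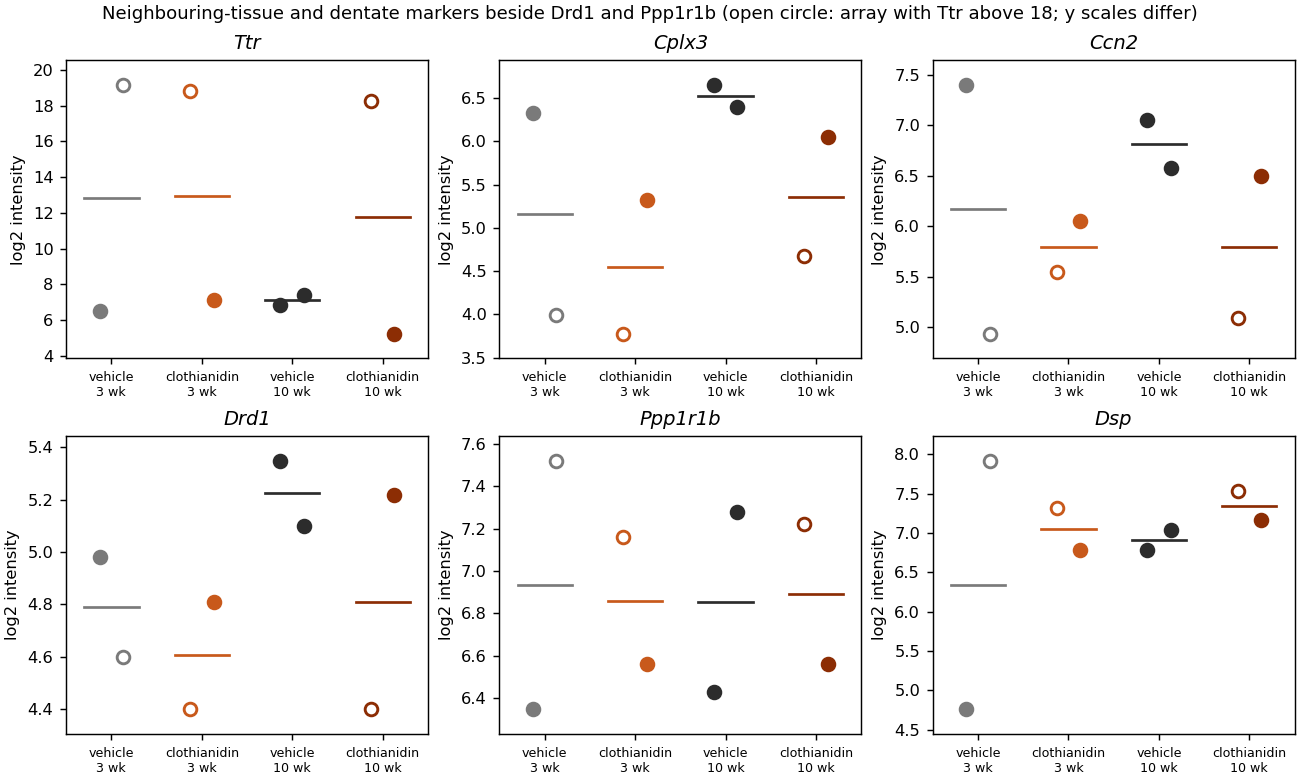
Log2 level (vertical axis, scales differ) of Ttr, Cplx3 and Ccn2 as markers of neighbouring tissue, of Drd1 and Ppp1r1b, and of the dentate gyrus gene Dsp, in the 4 groups along the horizontal axis. Each point is 1 array, open where Ttr was above 18, and each bar is a group mean. Ttr read above 18 in 3 arrays, the same 3 in which Drd1 lay at 4.40 to 4.60 and Cplx3 at 3.78 to 4.67.

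The clusters whose values followed the set most closely over the 8 arrays were listed by Pearson r, as a description in which arrays share age and tissue differences. The profile was the median of the standardised values of Drd1, Drd2, Penk, Ppp1r1b, Rarb and Actn2, compared with 19563 clusters that carry 1 symbol. Tada3 (0.992), Ccdc173 (0.987), Glt6d1 (0.985), Snapc2 (0.981) and Senp5 (0.981) had the highest r. With only 8 arrays, 397 clusters exceeded an r of 0.9. For Drd1 alone the highest were Dnm3 (0.965), Slc15a5 (0.957), Plxdc1 (0.948), Mrps5 (0.939) and Hsd17b3 (0.938), and 19 clusters exceeded 0.9. For Drd2 they were Spata32 (0.986), Rcc1 (0.98), the immediate early gene Egr4 (0.976), Klhl11 (0.974) and Theg (0.973), with 176 above 0.9. No gene of the striatal list was among these.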

How the data were processed

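The deposited values are on the log2 scale, with 1 for each transcript cluster in each array. The authors made them by RMA, a version of which is not named, per the submitters' processing notes. Biotin-labelled material came from 250 ng of RNA (RIN above 7), per the labels' protocols. Whether the arrays were normalised together, and their hybridisation batches, are not given in the sources used here. Clusters were named through the platform annotation (19572 with 1 symbol, 2634 with none), and all 22206 were tested with no filter on dim clusters. The number of arrays, 2 per group, limits the precision.

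Group means were estimated from the 8 arrays by limma 3.58.1 (R 4.3.3) and moderated by empirical Bayes, with 4 residual and 7.44 prior degrees of freedom. Tests were two-sided, with Benjamini-Hochberg adjustment over all clusters, with a threshold of 0.05. Errors of differences are standard errors of this fit. The model was tested on simulated data. The alternatives were other priors, array weights, the replicate number as a block, only the groups compared, only brighter clusters (mean at or above the median), quantile normalisation, median centring, the mean of a gene's clusters, neighbouring tissue levels, and leaving out arrays.

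The genes of the set, 7 pathway lists, 9 marker lists and the Ttr settings were chosen with earlier results of these data known. The text names all genes of the set, the list genes past the threshold (with none past it, the 2 with the lowest p), and the 5 clusters most like a profile. Tac1, Pdyn, Gad1 and the genes named for their order or low level among arrays were named after their values were seen.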

Additional observations from a re-analysis of the deposited data

How the results depend on the processing

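No gene of the set passed in an exposure comparison under any alternative. Of 848 differences of these genes under alternatives, 63 had the opposite sign, and of 166 in the age comparison 7 did, all of Ppp1r1b. The cause of these changes was not tested. Many of the 848 could not change sign, so the tally does not measure stability. The other priors, the replicate block, the brighter clusters and the mean of a gene's clusters leave the estimate as it is. Leaving out an array of one age does not move the exposure difference at the other. The genes of the set called with age numbered 4. They numbered 1 with the replicate number as a block (Drd2), 2 among the brighter clusters, with a mean at or above the median (Penk and Actn2, with Drd2 and Rarb left untested), 2 after quantile normalisation (Drd2 and Rarb), 1 after median centring (Drd2) and 1 with Ttr as a covariate (Drd2). They numbered 0 without the 3 arrays with Ttr above 18, and 0 with choroid plexus and deep cortex levels as covariates, an alternative chosen after seeing the data. With these covariates the age differences were 0.93 for Drd2, 0.75 for Penk, 0.63 for Rarb and 0.73 for Actn2, against 0.88, 0.87, 0.68 and 0.69 without them. Over all clusters the age count was 2490, with 1143 among the brighter clusters, 0 without those 3 arrays (5 arrays in the fit) and 1280 with both covariates. Leaving out 1 array gave 628 (without the second clothianidin array at 10 weeks) to 2550 clusters (the second 3-week vehicle array omitted) and 0 to 4 genes of the set. It gave 0 to 1 cluster for exposure at 10 weeks and 0 to 1 for the difference between the exposure differences.

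Deviations of arrays with the same number in the compared groups correlated at -0.04 at 3 weeks and 0.138 at 10 weeks. Between the other pairs of groups the values ran from -0.267 to 0.071. Whether arrays with the same number share a batch or litter is not given in the labels, and these correlations cannot show it. The replicate block moved the count of called genes of the set from 4 to 1.

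Quantile normalisation turned Drd3 at 10 weeks to 0.04, and median centring turned the mean exposure difference of Ppp1r1b to 0.02. With Ttr as a covariate Ppp1r1b read -0.27 at 10 weeks, -0.19 in the difference between the exposure differences and 0.20 with age. Without the 3 arrays, the exposure values at 3 weeks were -0.23 for Drd4 and 0.21 for Ppp1r1b, which read -0.29 at 10 weeks. The difference between the exposure differences was then 0.17 for Drd1, 0.15 for Penk and -0.50 for Ppp1r1b. The mean exposure difference of Drd4 was -0.02, and Ppp1r1b read 0.25 with age. With both covariates, Penk read 0.07 at 3 weeks, Drd5 -0.15 and Ppp1r1b -0.61 at 10 weeks. The difference between the exposure differences was 0.05 for Drd1, -0.06 for Drd4 and -0.16 for Ppp1r1b. The mean exposure difference was -0.03 for Drd2, -0.01 for Drd5 and 0.02 for Penk, and Ppp1r1b read 0.38 with age.

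Leaving out 1 array turned these signs. With age Ppp1r1b ran from -0.32 to 0.27. At 10 weeks the ranges were -0.57 to 0.27 for Drd2, -0.15 to 0.08 for Drd3, -0.19 to 0.90 for Drd5, -0.58 to 0.12 for Penk, -0.39 to 0.46 for Ppp1r1b and -0.10 to 0.25 for Rarb. At 3 weeks they were -0.39 to 0.02 for Drd1, -0.54 to 0.08 for Drd3, -0.15 to 0.55 for Drd4, -0.51 to 0.08 for Penk and -0.66 to 0.51 for Ppp1r1b. For the difference between the exposure differences they were -0.64 to 0.18 for Drd1, -0.11 to 0.51 for Drd3, -0.24 to 0.46 for Drd4, -0.76 to 0.33 for Drd5, -0.37 to 0.33 for Penk and -0.47 to 0.70 for Ppp1r1b. For the mean they were -0.07 to 0.35 for Drd2, -0.29 to 0.02 for Drd3 and -0.31 to 0.27 for Ppp1r1b.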
